A study of Mus musculus with 8 samples.

Results

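Genes that mark successive steps of the oligodendrocyte lineage were followed through the RNA of neural stem cells from the mouse subventricular zone, the germinal layer beside the lateral ventricle. The rows were taken by gene symbol, and the rule itself uses no measured value: Olig1, Olig2, Sox10, Nkx2-2, Pdgfra, Cspg4, Myrf, Cnp and Mbp. The list was, however, chosen with earlier results of these data known, so its counts set beside all genes are descriptions. All 9 had a row among the 45777 genes of the deposited table, and 8 of them were among the 17644 genes that passed the filter on low counts; Sox10 did not pass. The series holds 8 total RNA samples: control (genotype label WT) and S1PR1-deficient cells (genotype label S1pr1 deletion), each given high-density lipoprotein labelled ApoM-HDL or ApoM+HDL, with 2 samples for each pairing. S1PR1 is a receptor for the lipid sphingosine-1-phosphate, and apolipoprotein M (ApoM) carries that lipid on the particle. The labels name neither the driver of the deletion nor the age of the mice, and do not say whether replicates came from separate cultures or animals, so p-values measure only the spread between these samples, which may be technical.

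The table names its libraries by codes only, CH, CV, GH and GV, each with 2 libraries numbered 1 and 2. C was read as control because only the control titles begin with that letter, and G as S1PR1-deficient by elimination. By the same elimination H and V were read as the lipoprotein preparations, but which letter is which preparation is not known here, so no direction below refers to ApoM. The targeted gene did not separate the genotypes. S1pr1 stood at 25.4 and 23.2 normalised CPM (counts scaled to the library's total) in the CH libraries, 20.7 and 16.0 in CV, 23.2 and 21.2 in GH, and 22.2 and 22.4 in GV. Averaged over H and V it differed by a log2 fold change of 0.08 ± 0.08 (SE) between the G and C libraries (edgeR quasi-likelihood test, adjusted p = 0.57). The difference did not pass under H (-0.13, adjusted p = 0.71) or V (0.28, adjusted p = 0.0948; without CV1 it was higher in GV, 0.48, adjusted p = 0.0193). Between CH and CV it was higher in CH (0.40, adjusted p = 0.0433), a call lost without CH1, CH2, CV2, GH1 or GH2. These counts cover the whole gene, and the labels do not name the deleted part. The libraries are therefore named by their codes throughout, and G means the libraries read as S1PR1-deficient. Library totals ran from 39619305 to 45698186 counts.

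Oligodendrocytes arise from progenitors that first switch on the basic helix-loop-helix factors Olig1 and Olig2, then the receptor Pdgfra and the surface proteoglycan Cspg4 (NG2), with Sox10 and Nkx2-2 as further lineage factors. Myrf drives the myelin programme, and Cnp and Mbp encode proteins of the myelin sheath. Stem cells of the subventricular zone make mostly neuroblasts and, in smaller number, oligodendrocytes, and in culture with growth factors they can express Olig2 without being committed to the lineage.

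Olig1 and Olig2 were the most abundant of the 9 genes, and Sox10, Mbp, Pdgfra and Myrf were the least abundant. Per kilobase of exon, the median level over the 8 libraries was 441 normalised CPM for Olig1 and 209 for Olig2, followed by 15.6 for Cspg4, 13.7 for Cnp and 5.66 for Nkx2-2. Myrf (0.200), Pdgfra (0.129) and Mbp (0.0796) lay far lower on the same scale, and the median of Sox10 was 0. The ranges over the libraries of Cspg4 and Cnp overlapped, as did those of Myrf and Pdgfra, of Pdgfra and Mbp, and of Mbp and Sox10, so the order within those pairs was not separated; the other neighbours in the order did not overlap. Sox10 had 2 reads in GH1 and 0 in the other 7 libraries, where 3 counts would correspond to between 0.0662 and 0.0771 CPM. Among mature oligodendrocyte genes, Mag, which encodes a myelin adhesion protein, had 0 reads in all 8 libraries, Mog 2 reads in total and Mobp 6. Of the 10 stem cell and astroglial markers listed, 8 were high or moderate, from Vim, at no less than 1645 CPM in any library, and Nes, at no less than 631, down to Sox9, at no less than 32.0. The other 2 were low: Gfap, which marks stem cells of the adult zone and astrocytes, had 0 to 38 reads per library, and the water channel Aqp4 had 51 to 99.

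**Figure D1:**
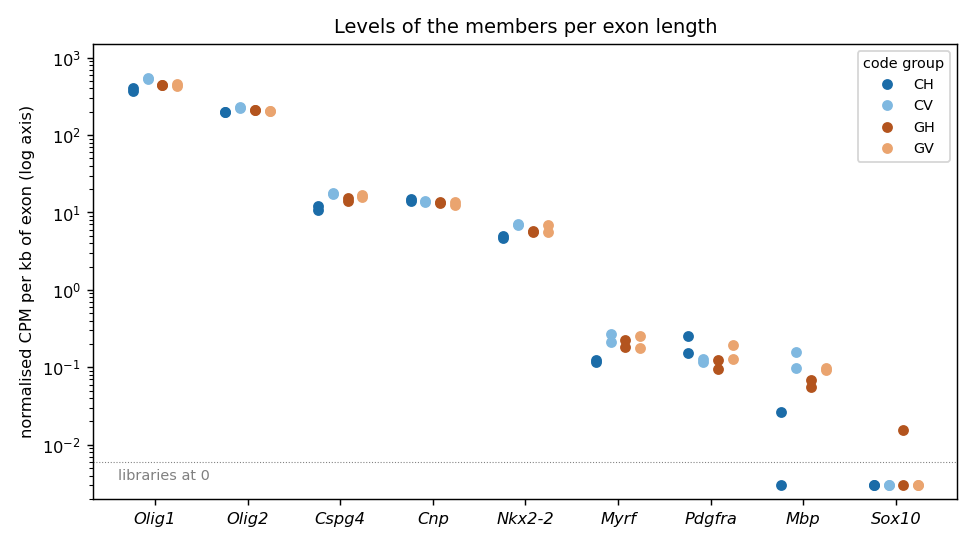
Level of each of the 9 genes per kilobase of exon in the 8 libraries (normalised CPM per kb, log axis), coloured by code group, with libraries at 0 drawn under the dotted line. Olig1 and Olig2 lie above all other members, and Sox10 is at 0 in 7 libraries.

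The promoters of Olig2, Cspg4 and Nkx2-2, which differed between CH and CV in the test described next, are shown with that of Cnp, which did not pass it, so that the regions can be compared. The sequences are from RefSeq (build GRCm38.p6). Each run is the 250 bases before an annotated transcription start, 5′ to 3′ on the strand of the gene. Capitals mark E-boxes, the letters CANNTG that helix-loop-helix factors such as the Olig proteins can bind; the pattern reads the same on both strands. Olig2 is at chr16:91225300-91225549 (plus strand), Cspg4 at chr9:56864854-56865103 (plus), Nkx2-2 at chr2:147186403-147186652 (minus) and Cnp at chr11:100574689-100574938 (plus). For Nkx2-2 and Cnp the start used lies inside the gene.
Olig2: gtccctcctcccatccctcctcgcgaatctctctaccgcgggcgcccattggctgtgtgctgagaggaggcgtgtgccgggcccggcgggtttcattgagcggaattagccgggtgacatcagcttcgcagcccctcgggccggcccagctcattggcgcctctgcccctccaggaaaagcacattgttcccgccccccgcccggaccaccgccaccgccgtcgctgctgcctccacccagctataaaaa
Cspg4: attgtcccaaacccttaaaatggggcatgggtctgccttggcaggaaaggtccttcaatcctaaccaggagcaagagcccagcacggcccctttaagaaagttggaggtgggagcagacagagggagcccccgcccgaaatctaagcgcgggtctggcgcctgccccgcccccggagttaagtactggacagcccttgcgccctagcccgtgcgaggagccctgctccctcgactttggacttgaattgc
Nkx2-2: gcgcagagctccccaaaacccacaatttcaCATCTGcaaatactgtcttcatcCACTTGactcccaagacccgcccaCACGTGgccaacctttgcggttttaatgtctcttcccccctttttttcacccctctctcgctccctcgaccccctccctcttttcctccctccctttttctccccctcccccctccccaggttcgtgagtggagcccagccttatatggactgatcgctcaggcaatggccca
Cnp: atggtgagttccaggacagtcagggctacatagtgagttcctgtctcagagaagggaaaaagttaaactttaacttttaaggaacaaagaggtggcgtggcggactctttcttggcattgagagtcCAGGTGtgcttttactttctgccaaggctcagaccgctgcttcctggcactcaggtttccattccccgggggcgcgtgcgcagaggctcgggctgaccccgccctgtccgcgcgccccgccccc

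Nkx2-2 held 3 E-boxes, whose first bases lay 220, 197 and 173 bases before the start. Cnp held 1, 124 bases before the start, and Olig2 and Cspg4 held 0. Pdgfra, which did not pass the test either and whose promoter is not printed, held 1, 182 bases before the start. Of 32851 promoters of this length, 66.22% held at least 1 such match. Of the 3 called members shown, 1 held the letters and 2 did not, and a match is a description of sequence only.

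The main difference lay between CH and CV. In the C libraries, 6 of the 8 members tested were lower under H than under V (adjusted p at most 0.05, edgeR quasi-likelihood test with Benjamini-Hochberg adjustment over all 17644 genes) and 0 were higher. In the same comparison 10.7% of all genes tested were called, and 4.99% were called lower. The median log2 fold change of the 8 members was -0.49, against -0.01 for all genes. The 6 were both Olig factors, Nkx2-2, Cspg4, Myrf and Mbp; Pdgfra and Cnp did not pass. In bulk RNA, fewer cells expressing a gene and less RNA of it per cell cannot be told apart.

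Olig1, which lies at chr16:91269769-91271939 (GRCm38) beside Olig2, stood at 883 and 805 normalised CPM in CH, 1176 and 1133 in CV, 953 and 953 in GH, and 933 and 989 in GV. CH was the lowest group and CV the highest, and neither overlapped any other group. The log2 fold change of CH against CV was -0.45 ± 0.06 (SE; adjusted p = 0.00112), a 1.37-fold difference. Olig2, at chr16:91225550-91228677, had 496 and 495 CPM in CH, 570 and 579 in CV, 533 and 533 in GH, and 513 and 523 in GV. It showed the same order of CH and CV with a smaller step, -0.21 ± 0.05 (adjusted p = 0.0214).

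Nkx2-2 (chr2:147176485-147195434) encodes a homeodomain factor of the lineage. It had 14.3 and 13.5 CPM in CH, 19.97 and 20.5 in CV, 16.1 and 16.5 in GH, and 19.8 and 15.9 in GV. Both CH libraries lay below all others, and GV1 lay near the CV level while GV2 lay near GH. CH was lower than CV by a log2 fold change of -0.54 ± 0.11 (adjusted p = 0.0112).

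Cspg4 (chr9:56865104-56899870), the NG2 proteoglycan of progenitors, gave the smallest adjusted p of the members. It stood at 146 and 130 CPM in CH, 206 and 214 in CV, 166 and 186 in GH, and 202 and 186 in GV. CH was lowest without overlap, and the log2 fold change of CH against CV was -0.60 ± 0.08 (adjusted p = 0.000986), or 1.52-fold. Cspg4 also marks mural cells of blood vessels. Of the 7 mural markers listed, only 3 passed the filter on low counts, and Rgs5, Kcnj8, Abcc9 and Anpep had between 2 and 63 reads in total over all 8 libraries. The summed level of the 7 was 5.74 to 8.76 CPM in CH, 1.93 to 1.94 in CV, 1.28 to 1.37 in GH and 1.68 to 1.74 in GV. Acta2, an actin of contractile cells, made up most of the CH sum, with a mean of 6.90 CPM, and it was higher in CH than in CV (log2 fold change 2.01 ± 0.30, adjusted p = 0.00269). The part of mural cells in the Cspg4 values was not tested.

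Myrf (chr19:10208271-10240777) and Mbp rested on few reads. Myrf had 40 and 47 reads in CH, 91 and 81 in CV, 66 and 77 in GH, and 99 and 64 in GV, and CH was lower than CV by a log2 fold change of -1.02 ± 0.29 (adjusted p = 0.0439). Mbp (chr18:82475091-82585637) had 0 and 10 reads in CH, 32 and 58 in CV, 20 and 23 in GH, and 35 and 35 in GV. Both CH libraries were below all others. The fitted difference of Mbp between CH and CV was -3.18 ± 0.77 (adjusted p = 0.0232), a value that depends on a library at 0; it was -8.49 without CH2, the CH library with reads.

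Cnp and Pdgfra behaved differently from these 6. Cnp (chr11:100574909-100591875), an enzyme of myelin-forming cells that is also made at low level elsewhere, had 55.0 and 51.5 CPM in CH and 49.6 and 51.7 in CV, with 48.2 and 49.3 in GH and 45.9 and 50.1 in GV; CH and CV overlapped and the log2 fold change was 0.07 ± 0.07 (adjusted p = 0.61). Pdgfra (chr5:75151322-75198206), the receptor through which platelet-derived growth factor keeps progenitors dividing, had 62 and 113 reads in CH, 46 and 56 in CV, 40 and 50 in GH, and 59 and 83 in GV. Its difference had the opposite sign to that of the 6, 0.73 ± 0.33, and did not pass (adjusted p = 0.18). Pdgfra also marks fibroblasts, whose markers Lum, Col1a2 and Col3a1 had 0 reads in all 8 libraries, while Dcn had 8 reads and Col1a1 had 9 in total. Only Fbln1, a matrix protein, passed the filter among the 6 fibroblast markers. It was lower in CH than in CV (-0.50 ± 0.09, adjusted p = 0.00473, edgeR quasi-likelihood test). The summed level of the 6 was 23.1 to 25.2 CPM in CH, 33.3 to 35.0 in CV, 21.7 to 23.0 in GH and 19.8 to 21.2 in GV. The part of fibroblasts in the Pdgfra values was not tested. Across the 8 libraries, Pearson's r of log2 CPM was 0.95 between Olig1 and Olig2 and 0.94 between Nkx2-2 and Cspg4, against -0.57 between Olig1 and Pdgfra and -0.16 between Olig2 and Cnp; the points share their libraries and fall into the 4 groups above, so these are descriptions.

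**Figure D2:**
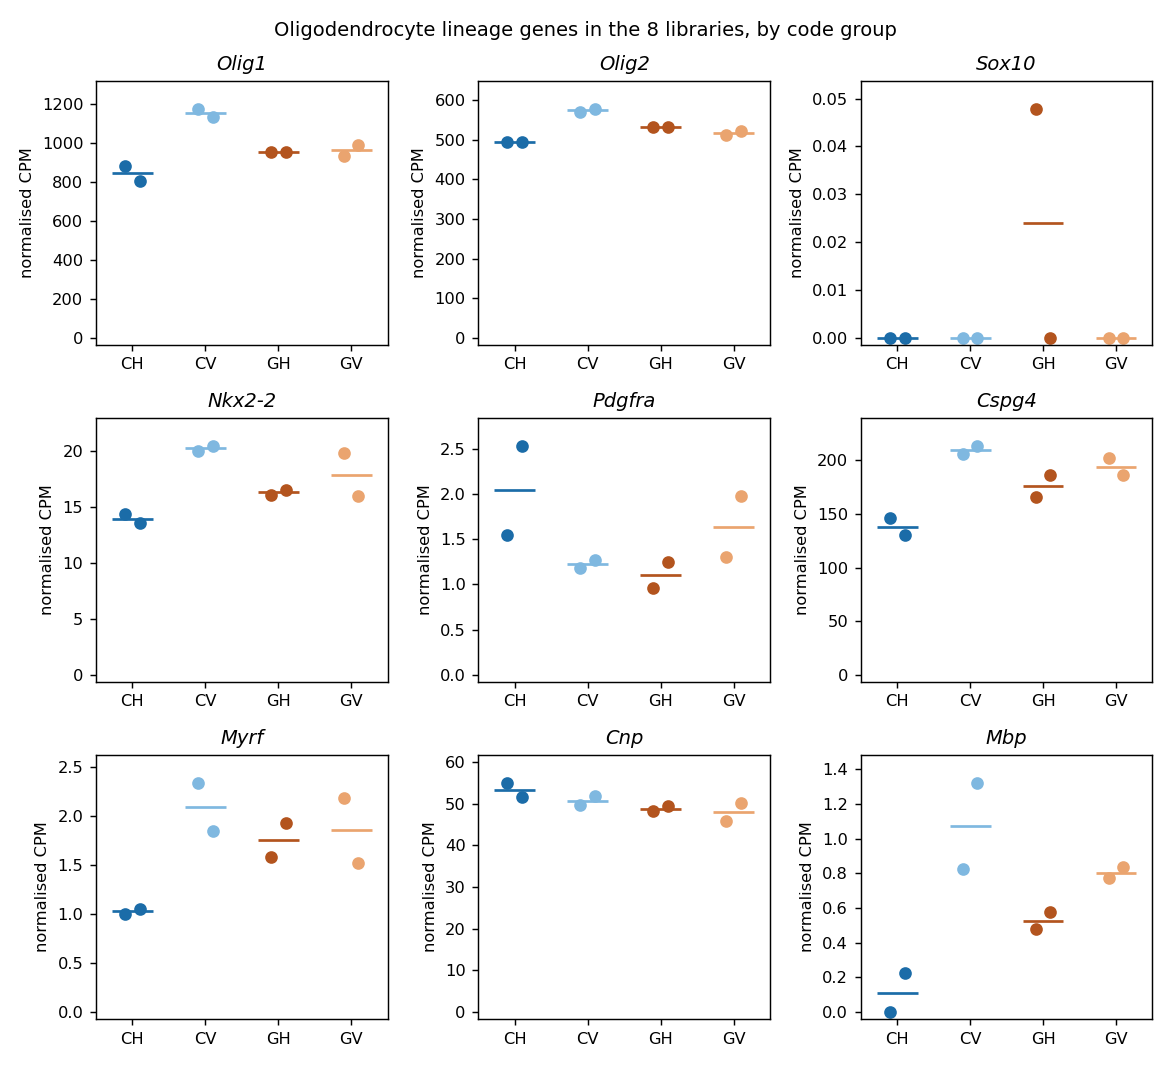
Normalised CPM of the 9 genes in each of the 8 libraries (points) with the mean of each code group (line); each panel has its own axis from 0. Olig1, Olig2, Nkx2-2, Cspg4, Myrf and Mbp are lowest in CH and highest on average in CV, with GH and GV between.

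The count of 6 depended on single libraries. It was 2 without CV2, 3 without CV1 and 3 without CH2. Olig1 and Cspg4 were called lower in CH than in CV under all 16 alternatives tried. Olig2 lost its call without any one of CH1, CH2, CV1, CV2, GH1 or GH2 (highest adjusted p = 0.14), Nkx2-2 without CH2, CV1 or CV2 (highest adjusted p = 0.11), and Mbp without CV2 (adjusted p = 0.15). Myrf lost its call in 9 alternatives, which included leaving out any one of CH1, CH2, CV1, CV2, GH1 or GH2 (highest adjusted p = 0.19). None of these log2 fold changes changed sign in any alternative.

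In the G libraries no member passed the test of H against V. By edgeR's quasi-likelihood test 0 of the 8 members were called, 0 had an unadjusted p under 0.05, and DESeq2 and limma-voom also called 0; 1.28% of all genes tested were called. The log2 fold change of GH against GV was -0.01 ± 0.06 for Olig1, 0.04 ± 0.05 for Olig2, -0.13 ± 0.11 for Nkx2-2, -0.14 ± 0.08 for Cspg4 and -0.08 ± 0.28 for Myrf. It was 0.02 ± 0.07 for Cnp, -0.57 ± 0.34 for Pdgfra and -0.60 ± 0.65 for Mbp. Both GH libraries lay below both GV libraries for Pdgfra and Mbp, which rest on few reads. The same held for Cspg4, by a narrow gap (186.2 CPM in GH2 and 186.4 in GV2). For Olig2 both GH libraries lay above both GV libraries. The share of all genes separated in this way was not computed. The sign for Olig1 changed without GV2, that for Nkx2-2 without GV1 and that for Myrf without GV1 or GH1, so no direction was established for them.

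Whether the H against V difference itself differed between G and C was tested as an interaction, which uses all 8 libraries and so shares them with both comparisons above. It was called for 3 of the 8 members, all with a positive value, against 7.35% of all genes called and 3.93% called with a positive value. The interaction was 0.44 ± 0.08 on the log2 scale for Olig1 (adjusted p = 0.0134), 0.46 ± 0.11 for Cspg4 (adjusted p = 0.0259) and 0.25 ± 0.07 for Olig2 (adjusted p = 0.0487). For these 3 genes CH lay below CV by more than GH lay below GV, and for Olig2 the GH mean of 533 CPM was above the GV mean of 518. Nkx2-2 (0.40 ± 0.15), Myrf (0.94 ± 0.41), Mbp (2.57 ± 1.01), Pdgfra (-1.30 ± 0.47) and Cnp (-0.05 ± 0.10) did not pass, with adjusted p from 0.11 to 0.84. The call for Olig1 was lost without CV2, GH1 or GH2 (highest adjusted p = 0.0778), and that for Cspg4 without CH2, CV1, CV2, GH1 or GH2 (highest adjusted p = 0.134). The call for Olig2 was lost in 11 of 15 alternatives, among them both other scalings (adjusted p = 0.063 and 0.062) and every left-out library except GV2. Mbp was called in the interaction without CH2 (7.89, adjusted p = 0.0419), where CH rests on a library at 0.

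**Figure D3:**
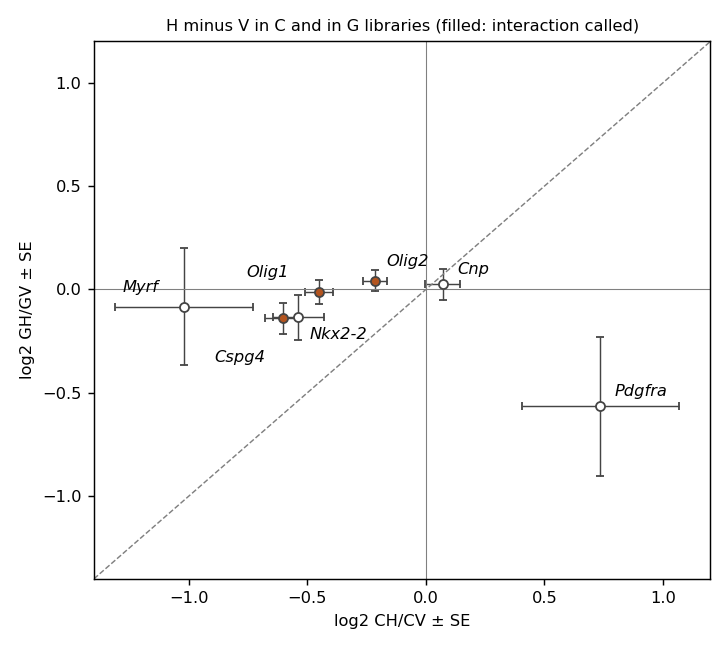
Log2 fold change of H against V in the G libraries (y) against that in the C libraries (x) with standard errors, for 7 members; Mbp, at -3.18 in C and -0.60 in G, is not drawn. The filled points Olig1, Olig2 and Cspg4, called in the interaction, lie left of 0 on the x axis and near 0 on the y axis, away from the dashed line of equal differences.

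Between genotype codes few members were called. Under H, 1 of the 8 members was called, against 1.81% of all genes (0.759% higher): Cspg4 was higher in GH than in CH by 0.35 ± 0.08 (adjusted p = 0.0381). That call was lost without any one of CH1, CH2, CV1, CV2, GH1 or GH2 (highest adjusted p = 0.35), and without CH2 Mbp was called higher (7.47, adjusted p = 0.0445). Under V, 25% of all genes were called and 13.4% were called lower, and 2 of the 8 members were called, both lower in GV than in CV. Olig1 differed by -0.27 ± 0.06 (adjusted p = 0.00585), in all 16 alternatives, and Olig2 by -0.15 ± 0.05 (adjusted p = 0.0473), which was lost in 11 of 16 alternatives, including leaving out any one of CV1, CV2, GH1, GH2, GV1 or GV2 (highest adjusted p = 0.20). The share of members called under V was equal to that of all genes. These comparisons share the CH and CV libraries with the first one.

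Averaged over H and V, 0 of the 8 members were called between G and C by edgeR, DESeq2 or limma-voom, while 19.2% of all genes were called; Cspg4 alone had an unadjusted p under 0.05, and without CH2 Mbp was called (adjusted p = 0.0139). For every tested member except Cnp, the G minus C difference had opposite signs under H and V, as for Olig1 (0.18 and -0.27). Most of these values were not called, and the sign for Myrf under V changed with a library left out. The share of all genes with opposite signs was not computed. The average over H and V therefore partly cancels, and it does not show that the members were alike in G and C. Averaged over C and G, 3 members were lower under H, against 3.19% of all genes called and 1.75% called lower. They were Olig1 (-0.23 ± 0.04, adjusted p = 0.0124), Cspg4 (-0.37 ± 0.05, adjusted p = 0.00392) and Nkx2-2 (-0.34 ± 0.08, adjusted p = 0.0389). In the G libraries alone their values were only -0.01, -0.14 and -0.13, and none passed. Olig1 and Cspg4 were also called in the interaction. These averages therefore do not show that H was lower in both genotype codes. Of the 3, only Cspg4 was called in all 15 alternatives. Olig1 lost its call without CV1, GH1 or GH2 (highest adjusted p = 0.0762), and Nkx2-2 without any library except GV2 (highest adjusted p = 0.15).

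**Figure D4:**
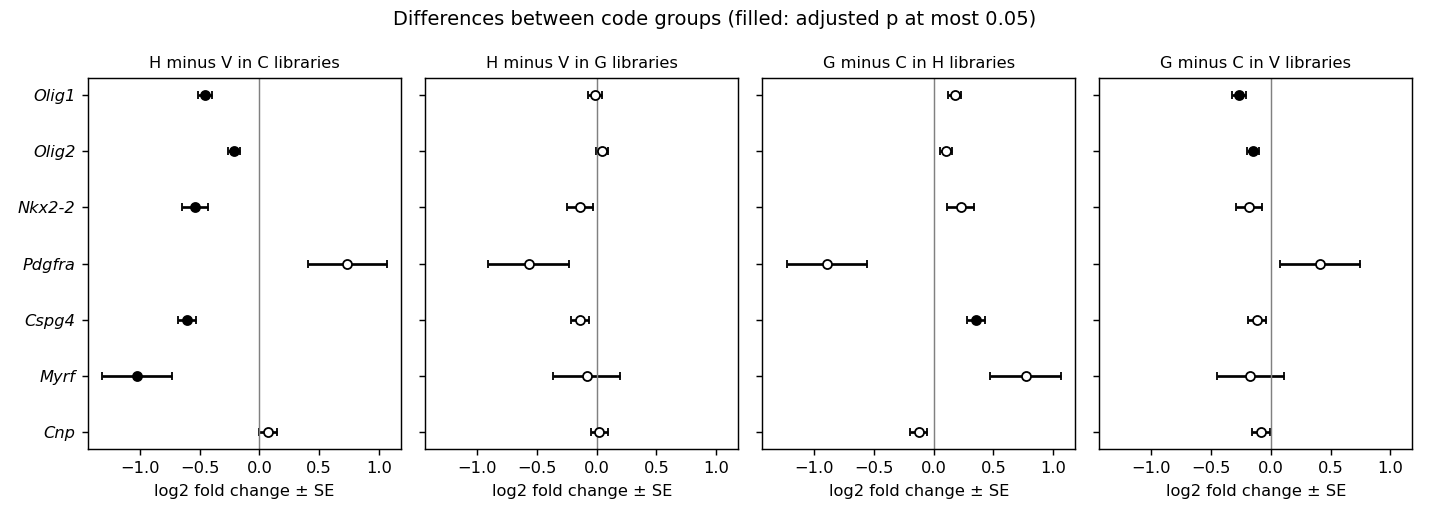
Log2 fold change with standard error of 7 members in the 4 comparisons between code groups; filled points have an adjusted p of at most 0.05, and Mbp is left out because its values reach -3.18. Filled points stand at 5 genes for CH against CV, at 0 for GH against GV, at Cspg4 for GH against CH, and at Olig1 and Olig2 for GV against CV.

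Other genes of the lineage were set beside the members. Of 16 further progenitor and lineage genes, 14 passed the filter, and 3 were lower in CH than in CV while 0 were higher, beside 10.7% of all genes called and 4.99% called lower. Of the 14, only 8 had negative values, and their median log2 fold change together was -0.07, against -0.01 for all genes. The 3 were Cacng4, a regulatory subunit for AMPA receptors (-0.67 ± 0.10, adjusted p = 0.00304), Lhfpl3, a progenitor marker (-0.53 ± 0.07, adjusted p = 0.00133), and Sox8, a close relative of Sox10. Sox8 had a mean of 112 CPM in CH and 141 in CV (-0.33 ± 0.06, adjusted p = 0.00526). Cacng4 and Lhfpl3 were called in all 16 alternatives, whereas Sox8 lost its call without CH2 or CV2 (highest adjusted p = 0.0714). In GH against GV, 0 of the 14 were called by edgeR and 0 by limma-voom, but 11 had negative values, 6 had an unadjusted p under 0.05 and DESeq2 called 3. The interaction was called for 0 of the 14 by edgeR and 0 by limma-voom, with 4 at an unadjusted p under 0.05 and 2 called by DESeq2, so a different H against V effect in G and C was not established for them. In GH against CH 1 of the 14 was called, and in GV against CV 3 were called higher and 2 lower, beside the shares of all genes given above. Averaged over H and V, edgeR called 3 of the 14 higher in G and 2 lower, beside 19.2% of all genes. DESeq2 and limma-voom each called 5. Bcas1, with 31 to 95 reads per library, was among the lower (-0.93 ± 0.21, adjusted p = 0.0109). Its values were -1.12 under H and -0.73 under V, and neither passed. Lhfpl3 was higher in G under both codes, by 0.69 ± 0.07 under H (adjusted p = 0.000317) and 0.37 ± 0.07 under V (adjusted p = 0.00229). The matrix proteoglycan Vcan (0.27 ± 0.06, adjusted p = 0.00757) and the receptor phosphatase Ptprz1 (0.20 ± 0.05, adjusted p = 0.00923) were also higher in GV than in CV. Cacng4 (-0.54 ± 0.10, adjusted p = 0.00287) and Sox8 (-0.18 ± 0.06, adjusted p = 0.0369) were lower. Of these, Vcan lost its call without CV1, Ptprz1 without CV2, and Sox8 in 11 of 16 alternatives, among them both other scalings and without any one of CV1, CV2, GH1, GH2, GV1 or GV2 (highest adjusted p = 0.21).

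**Figure D5:**
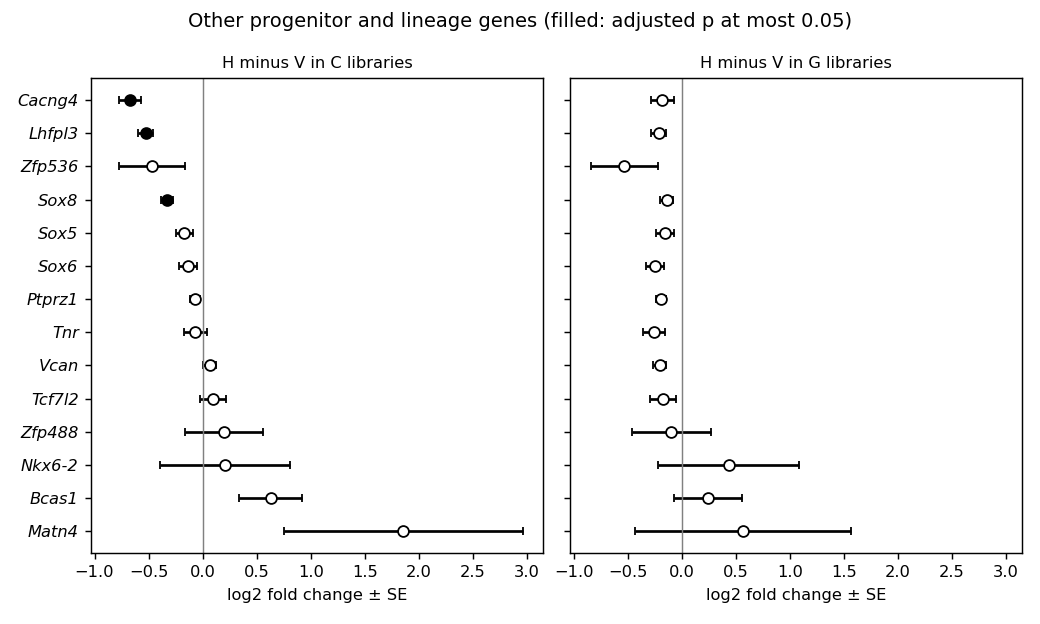
Log2 fold change with standard error of the 14 further progenitor and lineage genes tested, for H against V in the C libraries (left) and in the G libraries (right). Cacng4, Lhfpl3 and Sox8 are filled (adjusted p at most 0.05) on the left, and 0 genes are filled on the right.

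Of 18 ligands and receptors of the lineage, 15 were tested, and 2 were higher and 3 lower in CH than in CV. These counts, and those of the lists that follow, stand beside 10.7% of all genes called in that comparison; 1 call in a list of 6 to 10 genes is near that share. Pdgfa, the ligand of Pdgfra, was higher in CH (means of 22.9 and 15.8 CPM, log2 fold change 0.54 ± 0.10, adjusted p = 0.00783), as was Shh, a morphogen that induces Olig genes, at means of only 1.27 and 0.334 CPM (adjusted p = 0.0349). Lingo1, a receptor component that restrains myelination (-0.64 ± 0.12, adjusted p = 0.00629), the bone morphogenetic protein receptor Bmpr1b (-0.36 ± 0.07, adjusted p = 0.0068) and the receptor Fgfr3 (-0.20 ± 0.06, adjusted p = 0.0393) were lower. Pdgfa and Lingo1 lost the call without CH2 or CV2, Bmpr1b without CH2 or CV1, and Shh without any C library or GH1. Fgfr3 lost it in 9 of 16 alternatives, among them every left-out C or GH library, no filter and only the compared libraries. Of 6 inhibitors of the lineage, all tested, only Id3 was called, higher under H in the C libraries (0.35 ± 0.06, adjusted p = 0.0054) and in the G libraries (0.37 ± 0.06, adjusted p = 0.0201). Those calls were lost without CV2 in C and without GH1, GH2 or GV1, or with only the compared libraries, in G. Of 16 myelin genes 8 were tested, and only Trf, which encodes transferrin, was called (0.38 ± 0.08, adjusted p = 0.014), in the direction opposite to Mbp; the call was lost without any C library.

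Markers of other cell types were looked at beside these results. The summed level of 8 neuroblast and neuronal markers was 157 to 164 CPM in CH and 164 to 168 in CV, and 1 of the 7 tested was called, Sp9, lower in CH (-1.59, adjusted p = 0.0215; lost without CH2 or CV1). Cd24a made up most of these sums, with means of 142 CPM in CH and 145 in CV. Dcx had only 16 to 53 reads per library, Dlx2 had 12 to 37, and Dlx5 had 0 in all 8. The sum of 7 microglial markers was at most 0.300 CPM in any library, with Aif1, Csf1r, C1qa and Itgam at 0 in all 8. The summed level of 10 stem cell and astroglial markers was 6126 to 6129 CPM in CH, 6009 to 6027 in CV, 5432 to 5595 in GH and 5112 to 5300 in GV, and in CH against CV only Sox2 was called, lower in CH (-0.28, adjusted p = 0.0367; lost in 4 of 16 alternatives, among them without CH2, CV1 or CV2). The summed level of 6 endothelial markers was 4.13 to 4.28 CPM in CH, 2.54 to 2.94 in CV, 2.45 to 2.78 in GH and at most 2.91 in GV, so CH lay above the other groups; 4 of the 6 were tested and in CH against CV 0 were called by edgeR, DESeq2 or limma-voom, and 0 had an unadjusted p under 0.05, while Cldn5 had 2 reads and Cdh5 had 8 in total. The sum of 5 ependymal markers overlapped between CH (18.8 to 23.6 CPM) and CV (16.3 to 20.8), and 0 of the 3 tested were called by any of these tools or had an unadjusted p under 0.05. The part of these cell types in the members' differences was not tested.

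The 5 genes outside the list whose log2 CPM followed that of Olig2 most closely over the 8 libraries were Parvb (Pearson's r = 0.99), Cdc25b (0.98), Grn (0.98), the pseudogene Gm14323 (0.98) and Fxyd6 (0.98). They were picked as the highest of all genes tested over only 8 libraries in 4 groups, so the values describe these libraries.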

How the data were processed

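Total RNA was extracted with a column kit, ribosomal RNA was removed and strand-marked libraries were made, per the protocols in the labels. Per the submitters' processing notes, the tools were HISAT2 2.1.0, StringTie 2.1.3b, Trimmomatic and bcl2fastq 2.20.0, with roles not stated, and the build was GRCm38 (mm10). The authors deposited read counts per gene, per the file headers, and no filter is stated. The 16 FPKM and TPM columns were not used, since a library code gives a genotype but no single sample.

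Counts were tested with edgeR 4.0.16 (R 4.3.3): TMM scaling, filterByExpr on the 4 code groups, and a quasi-likelihood fit over all 8 libraries that shares 1 estimate of the spread, with Benjamini-Hochberg adjustment at 0.05. A negative log2 fold change means lower in the first-named group, and standard errors are the fold change over the square root of F. Normalised CPM divide counts by TMM-scaled totals, and exon lengths are unions of GENCODE exons. Alternatives were DESeq2 1.42.0, limma-voom 3.58.1, 2 other scalings, 2 other filters, the replicate number as a block, fits on the compared libraries only, and leaving out each library. The test was checked on simulated data. Replicate libraries differed by more than sampling noise (chi-square per degree of freedom 5.40 to 14.5). Positions come from RefSeq GRCm38.p6, and all 9 gene IDs matched. Promoter entries were used for 5 members, and any entry on chr18, where Mbp lies, was left out. The named genes are the members, S1pr1, genes taken from those called in the listed sets (at most 3 per direction, list and comparison by size, and defining markers near 0) and the 5 genes most like Olig2. Not every call of the lists is named, above all between G and C, so an unnamed gene may have been called. A result on 1 gene of the lists is not reported here. The members and lists were chosen with earlier results of these data known.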

Additional observations from a re-analysis of the deposited data

Results flagged for a closer look

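The H against V difference differed between the C and the G libraries for 3 members by the test of the interaction: Olig1 (0.44 on the log2 scale), Cspg4 (0.46) and Olig2 (0.25). Nkx2-2 was flagged because 1 of the 4 G libraries, GV1 at 19.8 normalised CPM, stood apart from the other 3 at 15.9 to 16.5 (gap over range 0.853, above Dixon's 95% critical value for 4 samples). Chance flags about 1 in 20 such groups if all 4 libraries are of 1 kind, whereas these span both H and V, so the rate is only a guide. The cause of these differences was not tested, and the S1pr1 counts did not separate the libraries by their genotype code.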

How the results depend on the processing

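Of the 63 pairs of gene (8 members and S1pr1) and comparison, 36 kept direction and side of the threshold under every alternative run; of the 16 called pairs, 0 reversed and 12 lost the call under at least 1 alternative. In CH against CV, the count of called members, 6, ranged from 2 to 6 with a library left out. For G against C under H it was 0 with the replicate block and 0 to 1 with a library left out (1 as reported). For G against C under V it was 1 with RLE scaling, upper-quartile scaling, no filter, the replicate block or only the compared libraries, and 1 to 2 with a library left out (2 as reported). Left-out libraries gave 0 to 3 for the interaction (3), 0 to 1 for G against C averaged (0) and 1 to 3 for H against V averaged (3).

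Reversals were found only for uncalled values, in fits without 1 library. For GH against GV the ranges were -0.054 to 0.031 (Olig1), -0.28 to 0.031 (Nkx2-2), -0.32 to 0.20 (Myrf), -0.039 to 0.089 (Cnp) and -0.083 to 0.058 (S1pr1). They were -0.45 to 0.064 for Myrf in GV against CV, -0.11 to 0.019 for the interaction of Cnp, -0.059 to 0.10 (Nkx2-2) and -0.011 to 0.18 (S1pr1) for G against C averaged, and -0.12 to 0.25 for Pdgfra in H against V averaged. A lone library left in a group was taken to vary like the others.

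Libraries sharing a replicate number did not deviate together (r from -0.04 to 0.04). The replicate block called 5 members in CH against CV, 2 in the interaction and 2 in H against V averaged, and in CH against CV it ended the calls of Fgfr3 (adjusted p = 0.0609) and Sox2 (adjusted p = 0.0563). Over all genes, the 226 calls in GH against GV became 668 with DESeq2, 356 with limma-voom, 575 with no filter, 525 with the stricter filter, 137 with the block and 31 with only the compared libraries, and the 562 in H against V averaged became 1132 with DESeq2, 1006 with no filter, 947 with the stricter filter and 325 with the block. The 320 in GH against CH became 567 with DESeq2, 552 with no filter and 203 with the block; the 1296 of the interaction became 2022 with DESeq2. With RLE scaling, 43.9% of interaction calls were positive, against 53.5% as reported, and 42.8% with upper-quartile scaling. With a library left out, calls over all genes ran from 255 to 2169 for CH against CV (1883 as reported), 8 to 843 for GH against GV, 45 to 415 for GH against CH, 1950 to 4444 for GV against CV (4408), 56 to 1450 for the interaction, 1585 to 3391 for G against C averaged (3387) and 96 to 1182 for H against V averaged. Of 22 calls checked in this way for genes of the other lists, 8 held under every alternative that gave a value and 0 reversed. The list calls averaged over H and V were not among them. DESeq2 gave no adjusted p for Myrf or Mbp in CH against CV. Low counts limit Myrf, Pdgfra and Mbp.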

Other observations

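Trf, which encodes the iron carrier transferrin and is made by oligodendrocytes among other cells, was lower in G than in C under both codes, by a log2 fold change of -1.08 ± 0.08 under H (adjusted p = 4.11e-05) and -0.77 ± 0.08 under V (adjusted p = 0.00018, edgeR quasi-likelihood test). Its means were 78.1 CPM in CH, 60.0 in CV, 37.0 in GH and 35.1 in GV. Aldh1l1, a folate enzyme used as an astroglial marker, stood at means of 293 CPM in CH, 330 in CV, 177 in GH and 175 in GV. For both genes every C library lay above every G library. Neither gene stands for its list. Averaged over H and V, 1 of the 8 myelin genes tested, Trf, was called lower in G and 0 higher. Only 3 of the 8 had negative values. Of the 10 stem cell and astroglial markers, 3 were called lower, and 1, Sox9, was called higher (0.25 ± 0.06, adjusted p = 0.0113). Of all genes, 19.2% were called in that comparison. In the same average, 0 of the 8 tested members were called between G and C, but for all of them except Cnp the differences under H and V had opposite signs. Most of those differences were not called, and the share of all genes with opposite signs was not computed.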
